A study of Mus musculus with 4 samples.

Results

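AP-1 is the clathrin adaptor of the trans-Golgi network and endosomes, and its subunits are encoded in the mouse by Ap1m2, Ap1m1, Ap1b1, Ap1g1, Ap1g2, Ap1s1, Ap1s2 and Ap1s3. All 8 genes were followed here, through every probe set that the platform annotation names for 1 of them alone. There were 18 such probe sets of 45037 in all, and the annotation gave 18193 genes a probe set of their own. The arrays carried RNA of epithelial cells loosened from the small intestine in chilled EDTA solution and teased off with a needle while watched through a stereomicroscope. By their labels, the AP-1B-/- group (2 arrays) came from knockout mice and the AP-1B+/- group (2 arrays) from heterozygous mice. Both groups were healthy C57BL/6J adults of 10 weeks kept under specific pathogen-free conditions, and arrays are named here by label and replicate number. The labels give neither the part of the gene that was removed nor the sex of the animals, and they do not say how many animals each array stands for.

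The complex is built from a gamma and a beta1 chain, a medium mu1 chain and a small sigma1 chain. It is recruited to membranes by the GTPase Arf1, binds sorting signals in the tails of membrane proteins through its mu1 and sigma1 chains and links this cargo to clathrin. AP-1A, with the mu1A chain of Ap1m1, is found in most cell types, while AP-1B, with the mu1B chain of Ap1m2, is found in epithelia and sorts proteins to the basolateral surface. The other chains are shared by both forms, so Ap1m2 is the member that sets AP-1B apart.

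The promoters of Ap1m2, Ap1s3 and Ap1s1 are shown because Ap1m2 is the gene that sets AP-1B apart, Ap1s3 had the lowest log2 difference by label and Ap1s1 had the pattern farthest from that of Ap1m2 in the deposited values, as described below. Each is the stretch of 250 bases before the RefSeq start in assembly GRCm38.p6, at chr9:21312334-21312583 for Ap1m2, chr1:79671973-79672222 for Ap1s3 and chr5:137046109-137046358 for Ap1s1, all on the minus strand and printed from 5′ to 3′. Capitals mark matches to CACCTG on either strand, the E-box that ZEB and SNAI repressors of epithelial genes are known to bind. The motif was chosen after the Ap1m2 sequence was seen.
Ap1m2: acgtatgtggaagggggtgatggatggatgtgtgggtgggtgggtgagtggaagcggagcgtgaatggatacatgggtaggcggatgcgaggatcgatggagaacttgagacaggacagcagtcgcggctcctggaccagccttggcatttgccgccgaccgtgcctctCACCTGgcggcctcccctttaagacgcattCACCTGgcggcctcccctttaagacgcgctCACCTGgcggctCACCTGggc
Ap1s3: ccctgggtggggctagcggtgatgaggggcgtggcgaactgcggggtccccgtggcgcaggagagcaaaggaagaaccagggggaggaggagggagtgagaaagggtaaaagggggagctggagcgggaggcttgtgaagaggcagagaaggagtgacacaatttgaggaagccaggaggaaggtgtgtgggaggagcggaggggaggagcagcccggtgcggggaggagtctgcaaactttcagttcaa
Ap1s1: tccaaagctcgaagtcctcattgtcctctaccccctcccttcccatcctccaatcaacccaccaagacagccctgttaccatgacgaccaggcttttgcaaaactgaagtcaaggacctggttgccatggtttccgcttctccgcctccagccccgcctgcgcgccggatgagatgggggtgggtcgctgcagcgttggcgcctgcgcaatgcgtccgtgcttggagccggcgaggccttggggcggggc

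The Ap1m2 window held 4 matches, the first beginning 81 bases and the last 9 bases before the start. Windows for 7 of the 8 members were at hand, and Ap1m1 was not analysed here. Ap1g1 and Ap1g2 had 1 match each, and Ap1s3, Ap1s1, Ap1b1 and Ap1s2 had 0. Among 32851 windows of this length, 17.2% held the motif and 0.0426% held 4 or more matches. Since the motif was picked on the Ap1m2 window, that share does not measure how unusual the window is. Some of the Ap1m2 matches also lie in copies of a repeated stretch and are not separate occurrences. A match describes the letters only.

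Values are deposited MAS5 signals given as multiples of the array median, and log2 differences are AP-1B-/- minus AP-1B+/-, by label, of log2(signal + 0.32). Array medians were all near 1, but the upper quartile differed, at 5.57 and 4.27 for AP-1B-/- 1 and 2 and 4.13 and 5.54 for AP-1B+/- 1 and 2. A bright probe set therefore tended to be higher on AP-1B-/- 1 and AP-1B+/- 2 whatever the gene, and values after quantile normalization are given beside the deposited ones for the results that rest on this order. The number of arrays limits the precision. Probe sets with a mean signal of at least 0.983 over the 4 arrays were tested, which kept 12 of the 18 member probe sets, with at least 1 for each of the 8 genes. The Ap1s2 probe set 1452657_at was just inside this limit with a mean of 0.986, and the Ap1g1 probe set 1449663_at was just outside it with 0.880. The 6 that were not tested, of Ap1g1 and Ap1s2, had signals of 0.013 to 0.982.

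Xist had signals of 0.070 and 60.1 on the arrays labelled AP-1B-/- 1 and 2 and 0.349 and 30.3 on those labelled AP-1B+/- 1 and 2, and Y-linked Eif2s3y had 24.1 and 0.051 against 12.1 and 0.256. Y-linked Kdm5d had 5.39 and 0.159 on the AP-1B-/- arrays, against 4.88 and 0.602 on the AP-1B+/- arrays, and Uty had 4.45 and 0.037 against 3.75 and 0.335. Both arrays numbered 1 thus had a male and both arrays numbered 2 a female pattern. Sex and replicate number cannot be told apart, the spread between the arrays of 1 label holds any difference between the sexes, and comparisons of same-numbered arrays are also comparisons within a sex.

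Ap1m2, the gene of the mu1B chain and the one that makes AP-1B, had a signal (probe set 1460190_at) of 2.49 and 22.3 on the arrays labelled AP-1B-/- 1 and 2, against 19.9 and 4.33 on those labelled AP-1B+/- 1 and 2. It was high on 1 array of each label and low on the other, so the groups overlapped and the signal went against the labels of AP-1B-/- 2 and AP-1B+/- 2. The labelled groups averaged 12.4 ± 13.97 and 12.1 ± 10.99 (AP-1B-/- and AP-1B+/-, SD, n = 2 each), which is −0.28 ± 0.89 on the log2 scale (difference ± standard error, limma, adjusted p = 0.999907). Without AP-1B-/- 1 the log2 difference was 1.22, without AP-1B-/- 2 it was −1.79, without AP-1B+/- 1 it was 0.78 and without AP-1B+/- 2 it was −1.34. A probe set outside the removed part of the gene would not check the labels. Whether the arrays numbered 2 were exchanged was not tested, and every difference by label given here takes the labels as they stand.

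Ap1m2 was lower on the AP-1B-/- array in 1 same-numbered pair and higher in the other. AP-1B-/- 1 had 0.125 times the signal of AP-1B+/- 1, and 1.03% of tested probe sets lay as far apart on those arrays. AP-1B-/- 2 had 5.14 times the signal of AP-1B+/- 2, and 0.675% lay as far apart. Quantile normalization made both ratios more extreme, at 0.0943 and 7.0. Across numbers the arrays were closer: AP-1B-/- 2 had 1.12 times the signal of AP-1B+/- 1, and AP-1B-/- 1 had 0.574 times that of AP-1B+/- 2.

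**Figure D1:**
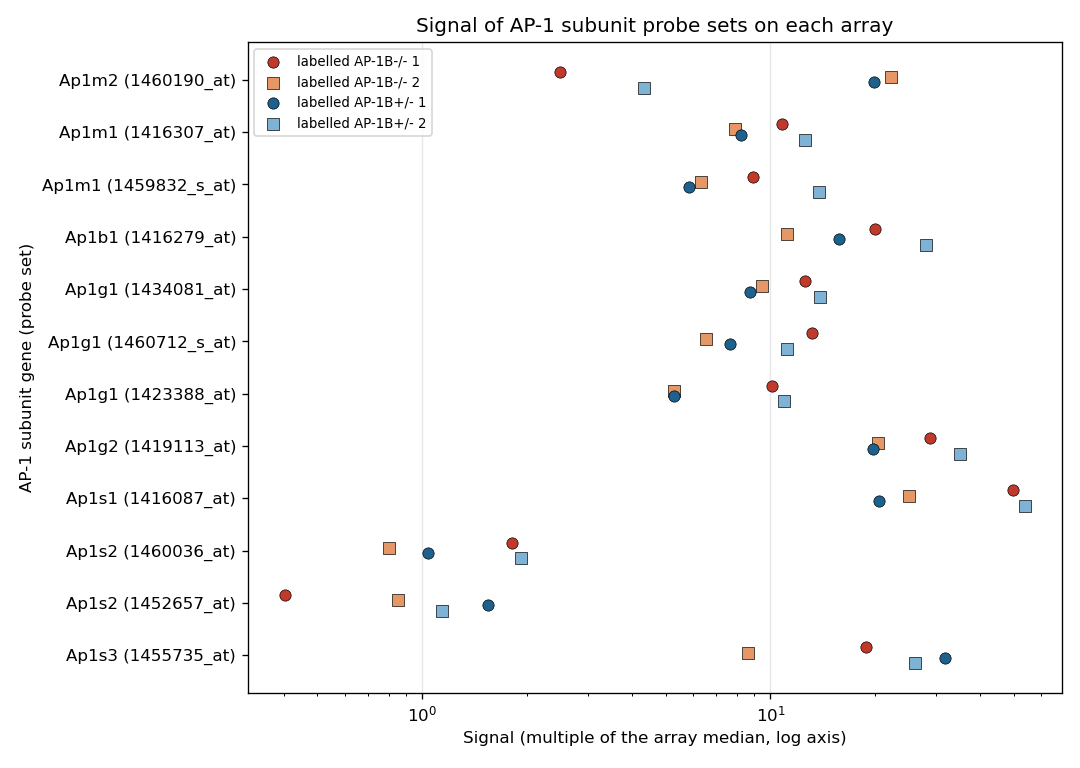
Signal of the 12 tested AP-1 subunit probe sets (rows) on each array, on a log axis in multiples of the array median; each point is 1 array, and levels of different probe sets cannot be compared. Ap1m2 was brightest on the arrays labelled AP-1B-/- 2 (22.3) and AP-1B+/- 1 (19.9), while most other members were dimmest there. So were 52.7% of all tested probe sets. After quantile normalization this held for 5 of the 12 member probe sets and 28.4% of all.

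Ap1m1, the gene of the ubiquitous mu1A chain, had 10.8 and 7.93 on the arrays labelled AP-1B-/- 1 and 2, against 8.22 and 12.5 on those labelled AP-1B+/- 1 and 2 (probe set 1416307_at). The other probe set, 1459832_s_at, had 8.94 and 6.34 against 5.84 and 13.8. Both were highest on AP-1B+/- 2 and high on AP-1B-/- 1, the arrays on which Ap1m2 was low, and the labelled groups overlapped. The log2 differences were −0.13 ± 0.53 and −0.25 ± 0.56 (± standard error, limma, adjusted p = 0.999907 for each). After quantile normalization 1416307_at had 9.22 and 9.40 on the AP-1B-/- arrays and 10.1 and 10.7 on the AP-1B+/- arrays, without overlap of the groups. Probe set 1459832_s_at then had 7.64 and 7.50 against 7.08 and 11.6, still highest on AP-1B+/- 2 and with overlap.

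The ratio of the mu1B to the mu1A signal (Ap1m2 over Ap1m1) is not altered by multiplying all values of an array by a constant. With probe set 1416307_at for Ap1m1, it was 0.0952 times as high on AP-1B-/- 1 as on AP-1B+/- 1 and 8.13 times as high on AP-1B-/- 2 as on AP-1B+/- 2. Within a label it was 0.082 times as high on AP-1B-/- 1 as on AP-1B-/- 2 and 7.0 times as high on AP-1B+/- 1 as on AP-1B+/- 2, and between AP-1B-/- 2 and AP-1B+/- 1 it differed by a factor of 1.16. Quantile normalization gave 0.104 and 7.97 for the same-numbered pairs, and probe set 1459832_s_at gave 0.0817 and 11.2. The medium chains thus changed unequally within each label, and little between the arrays on which Ap1m2 was bright.

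Ap1b1, the gene of the beta1 chain that binds clathrin, had 19.9 and 11.1 on the arrays labelled AP-1B-/- 1 and 2, against 15.8 and 28.1 on those labelled AP-1B+/- 1 and 2. It was lowest on AP-1B-/- 2 and highest on AP-1B+/- 2, with a log2 difference of −0.49 ± 0.59 (± standard error, limma, adjusted p = 0.999907). After quantile normalization it had 17.0 and 13.5 against 19.8 and 23.1, without overlap.

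Ap1g1, the gene of the gamma1 chain whose ear domain recruits accessory proteins, had 12.6 and 9.47 on the arrays labelled AP-1B-/- 1 and 2, against 8.72 and 13.9 on those labelled AP-1B+/- 1 and 2 (probe set 1434081_at). Probe set 1460712_s_at had 13.2 and 6.52 against 7.63 and 11.1, and 1423388_at had 10.1 and 5.30 against 5.29 and 10.9. All 3 were higher on AP-1B-/- 1 and AP-1B+/- 2 than on the other arrays, and their log2 differences by label lay between −0.06 and 0.01. The value of 0.01, for 1460712_s_at, was −0.01 after quantile normalization. Ap1g2, which encodes the gamma2 chain, had 28.7 and 20.4 against 19.8 and 35.1, in the same order of arrays, with a log2 difference of −0.12. That order was lost after quantile normalization for Ap1g2, with 24.5 and 24.8 on the AP-1B-/- arrays and 24.7 and 29.0 on the AP-1B+/- arrays, and for 1434081_at, with 10.7 and 11.3 against 10.7 and 11.7.

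Ap1s1, the gene of the sigma1A chain, had 49.7 and 25.003 on the arrays labelled AP-1B-/- 1 and 2, against 20.6 and 53.9 on those labelled AP-1B+/- 1 and 2. It was bright where Ap1m2 was dim and dim where Ap1m2 was bright, and the labelled groups overlapped. The log2 difference was 0.08 ± 0.64 (± standard error, limma, adjusted p = 0.999907). AP-1B-/- 1 had 2.42 times the signal of AP-1B+/- 1 and AP-1B-/- 2 had 0.464 times that of AP-1B+/- 2, or 1.65 and 0.690 times after quantile normalization.

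Ap1s3, the gene of the sigma1C chain, was the member with the lowest log2 difference. It had 18.9 and 8.61 on the arrays labelled AP-1B-/- 1 and 2, against 31.7 and 26.1 on those labelled AP-1B+/- 1 and 2. Both AP-1B-/- arrays lay below both AP-1B+/- arrays, also after quantile normalization (16.1 and 10.2 against 39.4 and 21.6). The mean signal was 13.7 ± 7.25 in the AP-1B-/- group and 28.9 ± 3.97 in the AP-1B+/- group (SD, n = 2 each), and the log2 difference of −1.15 ± 0.59 did not pass the test (± standard error, limma, unadjusted p = 0.0733, adjusted p = 0.999907). With 1 array left out the log2 difference ranged from −1.70 (without AP-1B-/- 1) to −0.60 (without AP-1B-/- 2), and the adjusted p stayed at 0.648 or above in every setting tried. The unadjusted p (limma) was under 0.05 in 4 settings. It was 0.0319 with quantile normalization, 0.0269 with median centring, 0.0475 without a variance trend and 0.00444 with a block of crossed replicate numbers. With the replicate block it was 0.232. The crossed block was added after the data were seen. It separates the arrays on which Ap1m2 was bright from those on which it was dim, so its p does not stand as a test planned in advance. Ap1s3 was lower on the AP-1B-/- array within both sexes, at 0.595 times AP-1B+/- 1 and 0.330 times AP-1B+/- 2, but both arrays numbered 2 had an Ap1m2 signal that went against their labels.

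Ap1s2, the gene of the sigma1B chain, was dim and its probe sets did not move together. Probe set 1460036_at had 1.81 and 0.805 on the arrays labelled AP-1B-/- 1 and 2, against 1.04 and 1.92 on those labelled AP-1B+/- 1 and 2, in the order of most other members. Probe set 1452657_at had 0.403 and 0.850 against 1.55 and 1.14, with both AP-1B-/- arrays below both AP-1B+/- arrays. Both AP-1B-/- values were under the limit of 0.983 for the mean signal. The probe set passed that limit only through the AP-1B+/- arrays, so the filter favoured its direction. The log2 differences were −0.17 ± 0.50 and −0.85 ± 0.49 (± standard error, limma, adjusted p = 0.999907 for each).

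By label, 0 of the 12 member probe sets passed the adjusted threshold of 0.05 and 0 had an unadjusted p under 0.05, where 0.0% and 0.755% of the 22519 tested probe sets did (limma). In the other settings with all arrays, 0 or 1 of the members had an unadjusted p under 0.05 (limma), which was Ap1s3 in the 4 settings named above. Of the 22519 tested probe sets, 163 had this with quantile normalization, 119 with median centring and 134 without a variance trend. With the block of crossed replicate numbers it was 1246, so a single member there is set against many more probe sets than in the main fit. Of the 12, 10 were lower and 2 higher on the AP-1B-/- arrays (11 and 1 after quantile normalization), with a median log2 difference of −0.15, against a median of 0.0054 and 50.7% higher over all tested probe sets. Groups did not overlap at 2 of the 12, Ap1s3 and the Ap1s2 probe set 1452657_at, both lower in AP-1B-/-. Of all tested probe sets, 10.7% did not overlap in that direction and 6.56% in the other. Since 1452657_at passed the filter only through the AP-1B+/- arrays, its direction is no support for a difference. After quantile normalization groups did not overlap at 4 of 12, with 1 probe set each of Ap1m1, Ap1b1, Ap1s2 (again 1452657_at) and Ap1s3. Of all tested probe sets, 11.0% then did so in that direction and 11.7% in the other. The median turned positive without AP-1B-/- 2 (0.10) or AP-1B+/- 2 (0.23), and was −0.48 without AP-1B-/- 1 and −0.55 without AP-1B+/- 1. Leaving out AP-1B-/- 2 gave 56 higher and 184 lower calls over all probe sets and leaving out AP-1B-/- 1 gave 17 and 7, with 0 member probe sets among them.

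**Figure D2:**
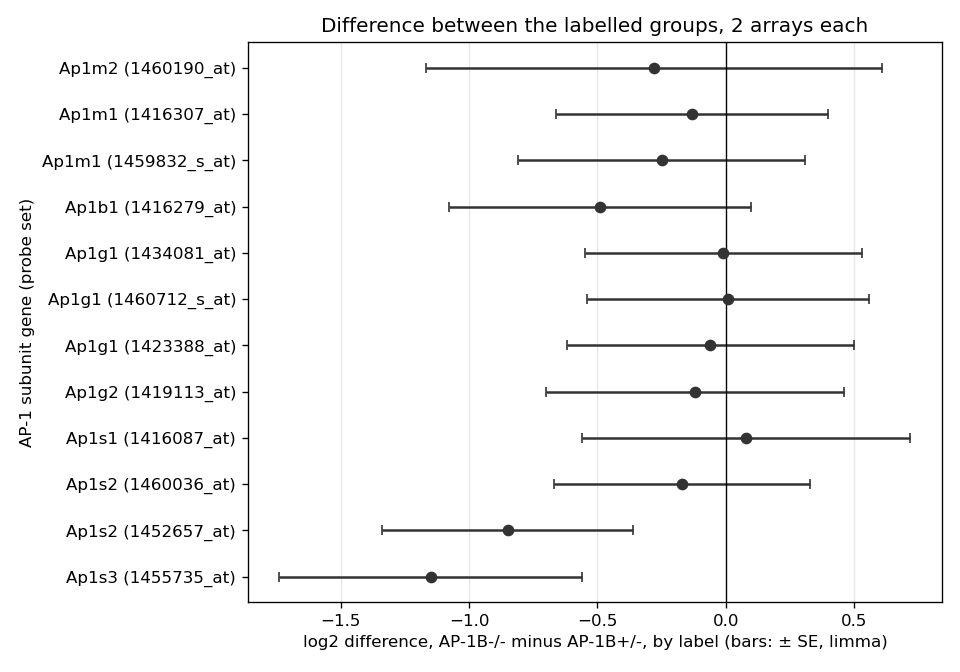
Log2 difference of each tested AP-1 subunit probe set between the labelled groups (horizontal axis, AP-1B-/- minus AP-1B+/-, 2 arrays each), with points for the limma estimate and bars for ± 1 standard error. Ap1s3 had the lowest value (−1.15) and Ap1m2 the widest bar (0.89).

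Beside the Ap1m2 signal, most other members had the arrays in the reverse order. For 9 of the 12 probe sets, of Ap1m1, Ap1b1, Ap1g1, Ap1g2, Ap1s1 and Ap1s2, the arrays labelled AP-1B-/- 2 and AP-1B+/- 1, on which Ap1m2 was bright, were the dimmest 2 of the 4. Over all tested probe sets this order held for 52.7%. After quantile normalization it held for 5 of the 12 members, 1 of Ap1m1, 2 of Ap1g1, Ap1s1 and 1 of Ap1s2, and for 28.4% of all. The order of Ap1m2 itself, with those arrays brightest, was shared by none of the other 11 under either scaling, and by 11.7% of all tested probe sets before and 24.9% after quantile normalization.

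Within pairs of arrays, on the log2(signal + 0.32) scale, Ap1m2 was 2-fold or more apart in each pair in which only 1 of the arrays had it bright. On AP-1B-/- 1 over AP-1B+/- 1, 3 of 12 member probe sets were 2-fold or more apart, namely Ap1m2 and the Ap1s2 probe set 1452657_at, lower, and Ap1s1, higher, with 25.4% of all tested probe sets as far apart. After quantile normalization it was 3 of 12 (Ap1m2, Ap1s3 and 1452657_at, all lower) and 19.1% of all. On AP-1B-/- 2 over AP-1B+/- 2 it was 6 of 12, with Ap1m2 higher and 5 lower, and 11.1% of all, but 2 of 12 (Ap1m2 higher, Ap1s3 lower) and 7.61% of all after quantile normalization. The median log2 ratio of the members in these pairs was 0.52 and −0.88, against 0.36 and −0.37 over all tested probe sets, and −0.01 and −0.43 after quantile normalization, against 0.03 and −0.02.

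Within labels, 2 of 12 were 2-fold or more apart on AP-1B-/- 1 over AP-1B-/- 2, Ap1m2 lower and Ap1s3 higher, with 23.6% of all, and 4 of 12 on AP-1B+/- 1 over AP-1B+/- 2, with 13.6% of all. After quantile normalization only Ap1m2 was so in each of these pairs, with 18.2% and 8.72% of all. Across numbers, only the Ap1s2 probe set 1452657_at was 2-fold or more apart on AP-1B-/- 1 over AP-1B+/- 2, with 9.55% of all, and only Ap1s3 on AP-1B-/- 2 over AP-1B+/- 1, with 3.29% of all. After quantile normalization it was 0 of 12 and 8.36% of all on the first of these pairs, and again only Ap1s3 and 4.02% of all on the other. Between AP-1B-/- 2 and AP-1B+/- 1, the arrays on which Ap1m2 was bright, Ap1s3 was 0.272 times as high on AP-1B-/- 2, a difference matched or exceeded by 0.471% of tested probe sets, while the member median was −0.03.

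**Figure D3:**
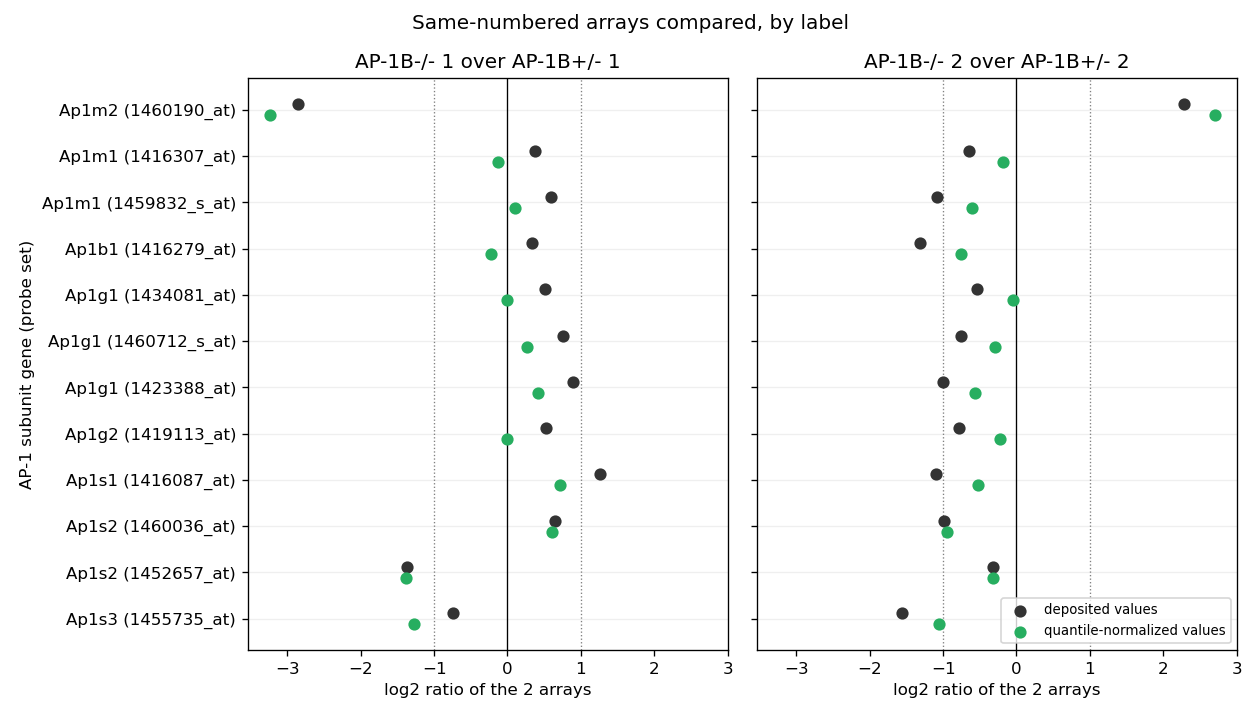
Log2 ratio of same-numbered arrays for each tested AP-1 subunit probe set, AP-1B-/- 1 over AP-1B+/- 1 (left) and AP-1B-/- 2 over AP-1B+/- 2 (right), for deposited values (dark) and after quantile normalization (green); dotted lines mark 2-fold. Ap1m2 lay at −2.85 in the left and 2.28 in the right panel, and Ap1s3 below 0 in both.

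The arrays also differed in markers of the cells that an EDTA preparation can hold. All 20 epithelial markers were measured, among them Krt8, a keratin of simple epithelia, with 601 and 382 on the arrays labelled AP-1B-/- 1 and 2, against 455 and 510 on those labelled AP-1B+/- 1 and 2. Krt20 had 430.5 and 287.5 against 332 and 348, and Krt19 had 551 and 192 against 205 and 382. The list summed to 4065 and 2412 on the AP-1B-/- arrays and 2533 and 3605 on the AP-1B+/- arrays (3458 and 2904 against 2805 and 3359 after quantile normalization). For 19 of the 20 (14 after quantile normalization) the arrays on which Ap1m2 was bright were the dimmest 2, beside 52.7% (28.4%) of all tested probe sets. After quantile normalization 2 of the 20 had the order of Ap1m2, beside 24.9% of all tested probe sets. Among them was Krt20, with 343 and 353 on the AP-1B-/- arrays and 369 and 332 on the AP-1B+/- arrays.

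T cell markers ran the same way as Ap1m2 at 10 of 10 genes under both scalings. Of all tested probe sets, 11.7% did so before and 24.9% after quantile normalization. The T cell sum was 13.98 and 309.7 on the arrays labelled AP-1B-/- 1 and 2. On those labelled AP-1B+/- 1 and 2 it was 501.6 and 102.1. Granzyme A, Gzma, had 5.79 and 149 against 244 and 53.8, and the chemokine gene Ccl5 had 2.01 and 61.8 against 93.2 and 13.3. Myeloid markers followed at 8 of 9 tested genes (9 after quantile normalization) and summed to 30.8 and 54.8 against 115 and 36.3. Among them Csf1r had 3.89 and 8.19 against 22.7 and 3.26. The exception in the deposited values was the lysozyme gene Lyz2, the brightest of the list, at 20.8 and 15.6 against 41.95 and 18.15. The order of proliferation markers was opposite at 8 of 9 tested genes (4 after quantile normalization), beside 52.7% (28.4%) of all tested probe sets. These markers summed to 421 and 144 against 140.8 and 223.5 (366.4 and 174.8 against 170.7 and 189.6 after quantile normalization). The replication clamp gene Pcna had 197 and 70.4 against 74.0 and 121, and Top2a had 36.5 and 13.2 against 13.0 and 18.8. No marker was listed at 0, and in whole preparations fewer cells of a type and less RNA per cell cannot be told apart. The part of these cells in the Ap1m2 and other AP-1 values was not tested.

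B and plasma cell markers (4 tested) summed to 272 and 243 on the arrays labelled AP-1B-/- 1 and 2, against 621 and 241 on those labelled AP-1B+/- 1 and 2, with Igha at 237 and 199 against 413 and 204 and Jchain at 34.1 and 39.6 against 205 and 34.9. Stromal and muscle markers (7 tested) summed to 26.3 and 23.7 against 22.1 and 18.2, with Acta2 at 9.66 and 10.1 against 5.91 and 6.39 and Col3a1 at 6.08 and 3.52 against 5.28 and 4.19. Of the 7, 3 were higher and 4 lower on the AP-1B-/- arrays, and 0 passed the adjusted threshold of 0.05 (limma). The 3 higher ones, Acta2 and the dim Actg2 and Myh11, did not overlap between groups, beside 6.56% of all tested probe sets. Of these, 2 had an unadjusted p under 0.05 (limma), Actg2 and Myh11, named after their values were seen, beside 0.755% of all. Pancreatic acinar markers (6 tested) summed to 4.83 and 62.8 against 4.46 and 11.7, highest on AP-1B-/- 2, with Cela2a at 0.082 and 24.5 against 0.12 and 3.49 and Ctrb1 at 0.543 and 12.1 against 0.149 and 1.90.

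**Figure D4:**
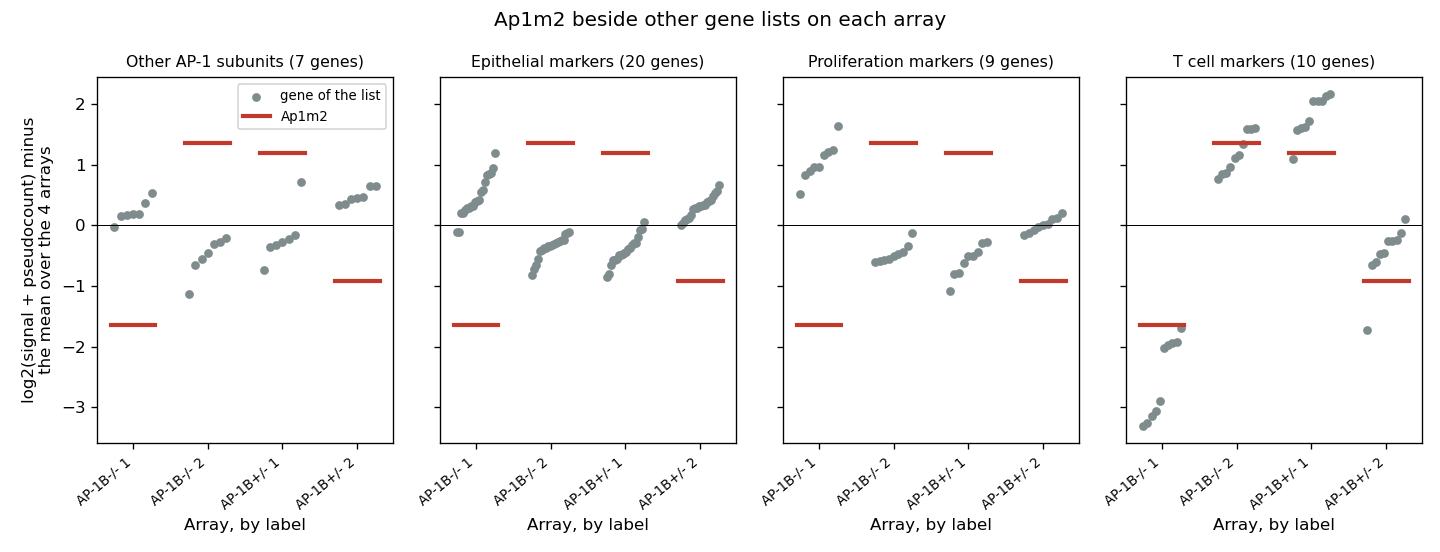
Log2(signal + 0.32) of each gene minus its mean over the 4 arrays (vertical axis) on each array, for the other AP-1 subunits, epithelial, proliferation and T cell markers (grey points, 1 per gene, spread sideways in order of value), with Ap1m2 as a red bar in every panel. T cell markers lay low on AP-1B-/- 1 and high on AP-1B+/- 1 as Ap1m2 did. For 19 of 20 epithelial markers the order of arrays was opposite, as it was for 52.7% of all tested probe sets.

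The likeness of other genes to Ap1m2 was measured as the Euclidean distance between log2 values centred on their mean over the 4 arrays, for 19641 tested probe sets named for 1 gene. The nearest was Cd52, a surface glycoprotein gene of leukocytes, at a distance of 0.34, with 1.61 and 12.4 on the arrays labelled AP-1B-/- 1 and 2 and 14.5 and 3.26 on those labelled AP-1B+/- 1 and 2. Cubn, the gene of the uptake receptor cubilin, followed at 0.38, with 1.23 and 12.4 against 13.4 and 1.86. The MHC class II genes H2-Aa (0.39) and H2-Eb1 (0.43) and the cytokine gene Csf2 (0.39) completed the 5 nearest. Csf2 was dim, with 0.095 and 2.09 against 1.84 and 0.265. Both of its low values lay below the pseudocount of 0.32, and it passed the filter only through the arrays on which Ap1m2 was bright. After quantile normalization the 5 nearest were Cubn (0.31), Cd52 (0.37), Stk10 (0.39), H2-Aa (0.44) and Aldh1a7 (0.44). Of the other AP-1 probe sets the nearest was 1452657_at of Ap1s2, with 7.45% of probe sets nearer, and for the other 10 this share was 55.3% to 91.0%. After quantile normalization it was 14.4% for 1452657_at and 44.6% to 89.9% for the other 10.

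None of the tested genes of other adaptor complexes, AP-1 partners and AP-1B cargo passed the test by label (limma with Benjamini-Hochberg adjustment, adjusted threshold 0.05). At an unadjusted p under 0.05 (limma) it was also 0. Subunits of the other adaptor complexes, AP-2 to AP-5, were tested at 18 of 20 genes, of which 8 were higher and 10 lower on the AP-1B-/- arrays (median log2 difference −0.03). Ap2m1, the medium chain of the endocytic adaptor AP-2, had 89.8 and 39.4 on the arrays labelled AP-1B-/- 1 and 2, against 39.7 and 71.0 on those labelled AP-1B+/- 1 and 2. Ap3s1, of the lysosomal adaptor AP-3, had 89.8 and 72.6 against 69.0 and 112, and Ap2s1 had 67.0 and 43.2 against 42.3 and 64.4. In 15 of the 18 the arrays were in the order opposite to that of Ap1m2 (2 after quantile normalization), an order held by 52.7% of all tested probe sets (28.4% after quantile normalization).

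AP-1 partners at the trans-Golgi network were tested at all 25 genes, with 9 higher and 16 lower (median log2 difference −0.04). Arf1, the GTPase that recruits AP-1, had 375.1 and 267.6 on the arrays labelled AP-1B-/- 1 and 2, against 273.0 and 375.5 on those labelled AP-1B+/- 1 and 2. The clathrin heavy chain gene Cltc had 171 and 97.4 against 115 and 187, and the light chain gene Clta had 172.0 and 108.4 against 111.5 and 176.2. For 20 of the 25 (9 after quantile normalization) the order was opposite to that of Ap1m2, beside the same 52.7% and 28.4% of all.

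Genes of proteins that AP-1B is known to sort or need were tested at 4 genes, of which 1 was higher and 3 were lower on the AP-1B-/- arrays (median log2 difference −0.16). The transferrin receptor gene Tfrc had 163 and 35.5 on the arrays labelled AP-1B-/- 1 and 2, against 20.9 and 107 on those labelled AP-1B+/- 1 and 2, an order opposite to that of Ap1m2 under both scalings. The same held for Cxadr, the coxsackievirus and adenovirus receptor, with 31.0 and 13.8 against 15.4 and 33.0, and for the vesicle fusion gene Vamp3, with 135 and 59.6 against 83.3 and 125. Pigr, the receptor that carries IgA across the epithelium, had 296.5 and 418 against 495 and 381.6. It alone of these 4 shared the order of Ap1m2, under both scalings, and none of the 4 passed the test (limma, log2 differences −0.30 to 0.68).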

How the data were processed

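Gene expression was measured on 4 one-colour arrays of small intestinal epithelial RNA, 2 labelled AP-1B-/- and 2 labelled AP-1B+/-, grouped by their titles. The authors deposited 1 linear intensity per probe set and array, which per the submitters' processing notes came from MAS5 (version not given in the sources used here). That each array was rescaled to a median near 1 is read from the values. Detection calls and scanner files were not analysed here.

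Gene names came from the platform annotation, and Entrez identifiers of all 8 members were found in RefSeq GRCm38.p6. Signals were transformed as log2(value + 0.32), the pseudocount being the 25th percentile of all values, and 22519 probe sets with a mean of at least 0.983 were tested in R 4.3.3 with limma 3.58.1 (linear fit, empirical Bayes with an intensity trend, Benjamini-Hochberg adjustment, threshold 0.05). Simulated data were used to check only that the fit recovers an added shift. They had 1 common spread and no difference in scale between arrays, so they do not test the fit under the scale differences seen here. With 2 arrays a label, the smallest p an exact two-sided permutation test allows is 0.333. Alternatives were other pseudocounts, filters, scalings and priors, blocks and each array left out.

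The members and lists were chosen with earlier results of these data known. Named genes were all member probe sets, the 3 brightest of each pathway and epithelial list, the 4 cargo genes reported, the 2 brightest of other cell type lists, sex-linked transcripts and the 5 genes most like Ap1m2. A gene in a list was represented by its brightest tested probe set.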

Additional observations from a re-analysis of the deposited data

Results flagged for a closer look

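Between same-numbered arrays, which were also of the same sex pattern, Ap1m2 was lower on AP-1B-/- 1 than on AP-1B+/- 1 (log2 difference −2.85) but higher on AP-1B-/- 2 than on AP-1B+/- 2 (2.28). Ap1s1 differed the other way round, at 1.26 and −1.10. Both were singled out because the direction by label was opposite in the male and the female pair, by 2-fold or more in each. The difference was not tested, since each label had 1 array per sex. Opposite directions of this size occurred at 5.74% of tested probe sets, and in the directions of Ap1m2 at 1.28%. After quantile normalization Ap1m2 had −3.24 and 2.71, and Ap1s1 had 0.72 and −0.53.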

How the results depend on the processing

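No member probe set passed under any setting. In this balanced design the replicate block cannot change a difference (Ap1m2 −0.28), only its standard error, and it gave 0 calls. The number of calls over all probe sets was 0 except for 1 with the brightest 25% only and a range of 0 to 240 with 1 array left out, where the lone array of a label is assumed to vary like the others. With 1 array left out the log2 difference of Ap1m2 ranged from −1.79 to 1.22 and the member median from −0.55 to 0.23. It ranged from −0.43 to 0.17 for 1416307_at and −0.84 to 0.35 for 1459832_s_at (Ap1m1), −0.34 to 0.31, −0.48 to 0.50 and −0.56 to 0.45 for the 3 Ap1g1 probe sets, −0.53 to 0.29 for Ap1g2, −0.61 to 0.77 for Ap1s1 and −0.63 to 0.29 for 1460036_at of Ap1s2. Ap1b1, Ap1s3 and 1452657_at of Ap1s2 kept their sign. The Ap1g1 probe set 1460712_s_at turned to −0.01 with quantile normalization and −0.02 with median centring. Quantile normalization moved the member median to −0.01 for AP-1B-/- 1 over AP-1B+/- 1, −0.43 for AP-1B-/- 2 over AP-1B+/- 2, 0.18 for AP-1B-/- 1 over AP-1B-/- 2 and −0.17 for AP-1B+/- 1 over AP-1B+/- 2. Over all tested probe sets the median of the same pairs moved from 0.36 to 0.03, −0.37 to −0.02, 0.33 to 0.02 and −0.40 to −0.03. The cause was not tested. Deviations from the label means of arrays AP-1B-/- 1 and AP-1B+/- 1 correlated at −0.511. A block of crossed numbers, added after the data were seen, gave 0 calls. That block is the same split as the arrays with bright and with dim Ap1m2.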

Other observations

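Of the 5 protein-coding genes on either side of Ap1m2 in the RefSeq order, 7 of 10 were tested, and 0 passed (limma, also 0 at an unadjusted p under 0.05). Of these, 2 were higher and 5 lower on the AP-1B-/- arrays, with a median log2 difference of −0.08. Slc44a2, a choline transporter-like gene chosen after its values were seen, was the only neighbour in the array order of Ap1m2, with 1.20 and 1.58 on the arrays labelled AP-1B-/- 1 and 2 and 2.53 and 1.45 on those labelled AP-1B+/- 1 and 2. After quantile normalization 3 of the 7 had that order, beside 24.9% of all tested probe sets (11.7% in the deposited values).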
